A study of Arabidopsis thaliana with 6 samples.

Results

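SIM, AUR1 and PRL are 3 Arabidopsis thaliana genes that act at different points of the cell division cycle. Their transcript levels were examined in whole seedlings of wild type and of an insertion mutant of the kinase gene CDKF;1. The members are the probe sets assigned to a single gene whose array symbol is SIM (AT5G04470), AUR1 (AT4G32830) or PRL (AT4G02060), which gives 3 genes of the 13356 named on the array, each with a probe set among the 22746 tested. A probe set is a group of short oligonucleotides on the array that together measure a transcript. The choice used the symbols and not the levels.

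The study profiled 6 samples of seedlings of the Col-0 accession, 3 wild type and 3 of the T-DNA insertion mutant cdkf;1-2. All were 7 days old, a figure that the labels count once from germination and once from sowing. The plates held 0.5% sucrose and stood at 22 °C in short days (8 h light, 16 h dark), and harvest came 4 h into the light period. CDKF;1 is a plant-specific kinase of the cyclin-dependent kinase (CDK) family that activates other kinases of that family, and the series title ties it to phosphorylation of RNA polymerase II at Ser-7 of its repeated tail. The samples are called biological replicates, with nothing on whether they shared a growth batch or a processing day. A single insertion allele was used. The probe sets with gene names include none for CDKF;1, so its own transcript was not analysed here.

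Plant cells leave the division cycle by way of endoreduplication, in which the DNA is replicated again without mitosis. SIM (SIAMESE) encodes the founding member of a plant family of CDK inhibitors and is known for its part in Arabidopsis leaf hairs (trichomes), where it stops division during endoreduplication. AUR1 encodes an Aurora kinase, a mitotic enzyme found on spindle microtubules and the forming cell plate. PRL (PROLIFERA) encodes MCM7, a subunit of the helicase that licenses and opens replication origins and that is needed both in dividing and in endoreduplicating cells. Published descriptions of cdkf;1 mutants report small seedlings with impaired cell division, cell expansion and endoreduplication. None of these traits was measured in the data used here.

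The deposited signals did not share a common scale. Median signals per array ran from 85.0 to 104 in wild type and from 64.1 to 114 in the mutant, so the signals were quantile-normalized before the comparison. Differences are given on the scale log2(normalized signal + 16), as mutant minus wild type, with limma's standard error (SE). P-values were adjusted over all 22746 probe sets, and an adjusted p under 0.05 is called a rise or a fall. At that threshold 14.4% of probe sets were called, 6.94% higher and 7.42% lower in the mutant. Normalized signals of the wild type and of the mutant did not overlap for 33.9% of probe sets, 15.8% higher and 18.1% lower.

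Of the 3 members, SIM rose in the mutant, and AUR1 and PRL did not pass the test. The point estimates were above 0 for the CDK inhibitor SIM and the mitotic kinase AUR1 and below 0 for the replication helicase subunit PRL. In each of the 3 the normalized signals of the genotypes did not overlap, a pattern shared by 33.9% of all probe sets. All 3 were brighter than the median probe set. Among the 5941 named genes of that kind 18.5% were called (9.24% higher, 9.31% lower), and 41.6% did not overlap between genotypes (19.1% higher, 22.5% lower).

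SIM, the CDK inhibitor, had normalized signals of 268, 322 and 289 in wild type replicates 1 to 3. In the mutant they were 476, 812 and 856. All mutant samples lay above all wild type samples, and mutant replicate 1 stood well below the other mutant samples. The mean was 293 ± 27.3 in wild type and 714 ± 208 in the mutant (SD, n = 3 each). The difference was 1.20 on the log2 scale (SE 0.23, 95% interval 0.67 to 1.73), a 2.30-fold rise (limma adjusted p = 0.0141, n = 3 per group). Only 1.63% of probe sets had a larger log2 difference. Within an array, SIM moved from between the 74.9th and 78.6th percentile of all probe sets in wild type to between the 85.4th and 92.2nd in the mutant. In whole seedlings, a change in the number of cells of a type and a change in RNA per cell cannot be told apart.

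The direction of SIM held in all settings run, and its call did not. The deposited signals were 262, 362 and 261 in wild type and 309, 864 and 1226 in the mutant. On that scale mutant replicate 1 lay below wild type replicate 2, and the groups overlapped. The array of mutant replicate 1 also had the lowest median signal of the 6. Without normalization the log2 difference was 1.20 (SE 0.46, limma adjusted p = 0.275). The call was also lost without wild type replicate 1 (log2 1.16, limma adjusted p = 0.0564), without wild type replicate 3 (log2 1.20, limma adjusted p = 0.0520) and without mutant replicate 2 (log2 1.07, limma adjusted p = 0.0527). Without mutant replicate 1 the difference was 1.47 (SE 0.13, limma adjusted p = 0.00219).

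**Figure D1:**
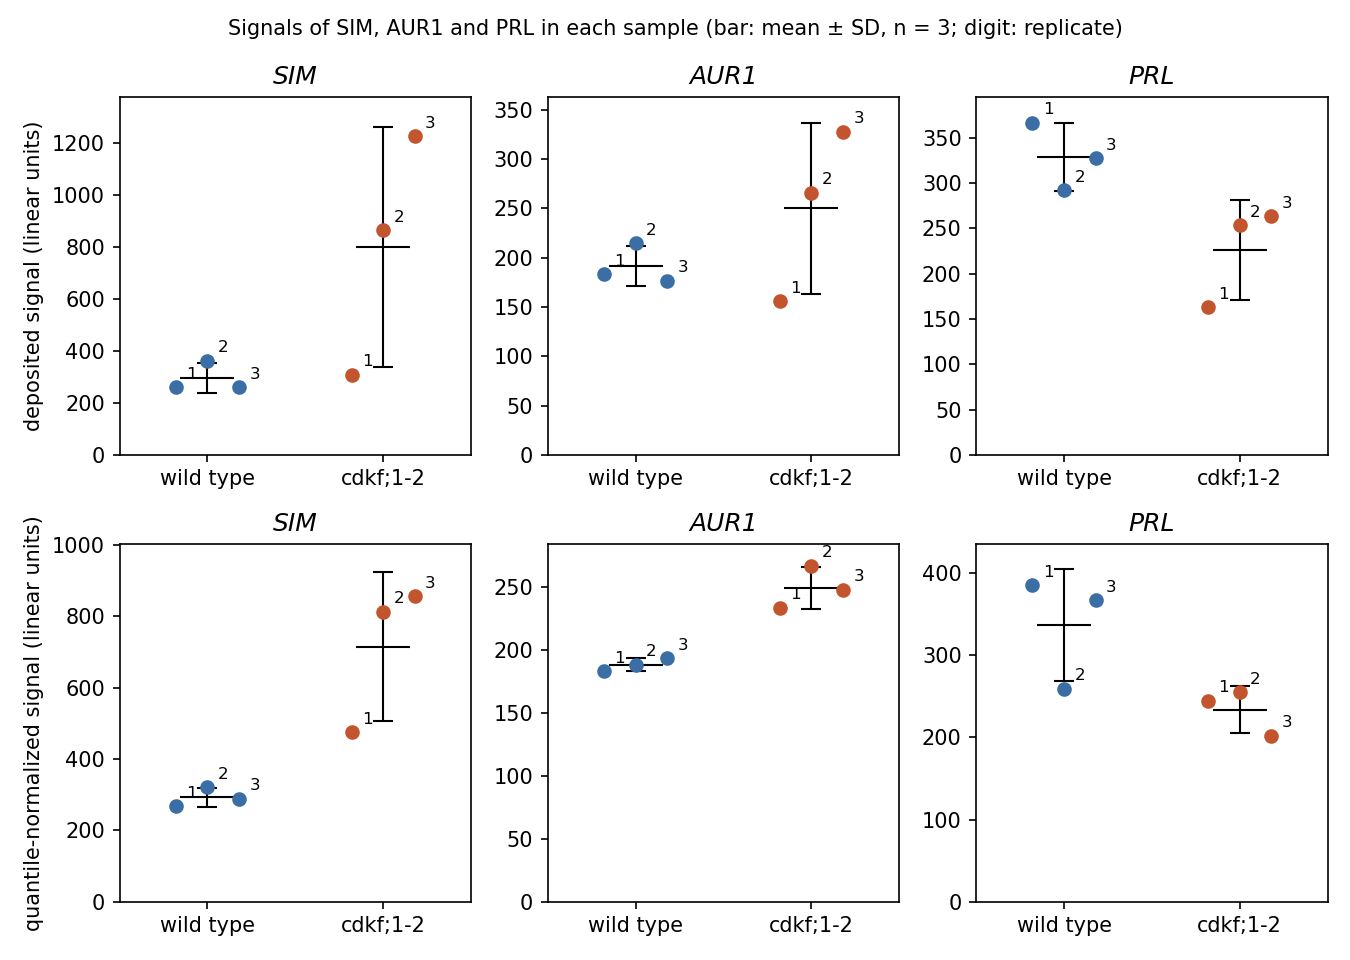
Signals of SIM, AUR1 and PRL (columns) as deposited (top row) and after quantile normalization (bottom row), in linear units, with each point a sample, its digit the replicate, and bars the mean ± SD (n = 3). After normalization the genotypes do not overlap for any of the 3 genes, whereas in the deposited signals they overlap for SIM and AUR1.

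AUR1, the Aurora kinase gene, had the tightest replicates of the 3. Its normalized signals were 183, 188 and 193 in wild type and 233, 267 and 248 in the mutant. The mutant samples all lay above the wild type samples, by less than the distance seen for SIM. The mean was 188 ± 5.18 in wild type and 249 ± 16.6 in the mutant (SD, n = 3 each). The log2 difference of 0.38 (SE 0.11, 95% interval 0.11 to 0.64), or 1.30-fold, did not pass over all probe sets (limma adjusted p = 0.0705, n = 3 per group). In all, 15.8% of probe sets had a larger log2 difference.

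In the deposited signals AUR1 read 183, 215 and 177 in wild type and 156, 266 and 328 in the mutant, so mutant replicate 1 was the lowest of the 6 samples there. Without normalization its log2 difference was 0.30 (SE 0.28, limma adjusted p = 0.702). AUR1 passed in 3 of 12 other settings and in 0 of the 6 fits with a sample left out. The 3 were a pseudocount of 64 (log2 0.31, limma adjusted p = 0.0255), array weights (log2 0.41, limma adjusted p = 0.0222) and omission of the dimmest 60% of probe sets (log2 0.38, limma adjusted p = 0.0426).

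The other Aurora genes had point estimates below 0. AUR2 encodes the closest relative of AUR1, with similar mitotic locations, and AUR3 encodes a more distant Aurora kinase found at centromeres. AUR2 had normalized signals of 81.4, 110 and 134 in wild type and 85.6, 90.9 and 80.0 in the mutant (log2 -0.27, SE 0.17, limma adjusted p = 0.353). AUR3 had 69.1, 56.9 and 79.4 in wild type and 56.0, 72.3 and 67.7 in the mutant (log2 -0.05, SE 0.15, limma adjusted p = 0.867). Both overlapped between genotypes, and their differences from that of AUR1 were not tested. Whether the AUR1 probe set also hybridises to AUR2 transcripts was not tested.

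PRL, the MCM7 gene, had normalized signals of 385, 259 and 366 in wild type and 244, 255 and 202 in the mutant. All mutant samples lay below all wild type samples, but wild type replicate 2 was only slightly above mutant replicate 2. The mean was 337 ± 67.9 in wild type and 234 ± 28.0 in the mutant (SD, n = 3 each). The log2 difference of -0.48 (SE 0.18, 95% interval -0.90 to -0.07) did not pass (limma adjusted p = 0.120, n = 3 per group). Wild type was 1.40-fold above the mutant, and 11.5% of probe sets had a lower log2 difference than PRL.

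The deposited signals of PRL were 367, 292 and 327 in wild type and 163, 253 and 263 in the mutant, and the genotypes did not overlap on that scale either. Without wild type replicate 2 the log2 difference was -0.66 (SE 0.16, limma adjusted p = 0.0667), and without mutant replicate 3 it was -0.38 (SE 0.20, limma adjusted p = 0.290).

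The 3 genes were next compared with each other inside each array, where any scaling factor of the array cancels. A probe set's level cannot be set against that of another probe set, but the change of their ratio between genotypes can be read. The ratio of SIM to PRL was 1.81 higher on the log2 scale in the mutant, or 3.50-fold. The ratio of SIM to AUR1 was 0.92 higher, or 1.89-fold, and that of AUR1 to PRL was 0.89 higher, or 1.85-fold.

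For each of the 3 ratios the mutant arrays lay above all wild type arrays. Each gave an exact permutation p = 0.1 (two-sided, n = 3 per group), the smallest that this design allows, and p = 0.1 after Benjamini-Hochberg adjustment over the 3 exact tests. The mutant spread was widest for SIM to PRL (SD 0.66, against 0.42 in wild type) and narrowest for AUR1 to PRL (SD 0.19, against 0.29). A changed ratio shows unequal change of the pair and does not say which of them moved. These ratios were formed after the levels had been seen. The log2 ratio of SIM to PRL is the sum of the other log2 ratios, so the 3 are not separate results. After normalization SIM and AUR1 already lay wholly higher in the mutant and PRL wholly lower. The separation of the ratios to PRL largely restates that. How often other pairs of probe sets separate was not counted.

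**Figure D2:**
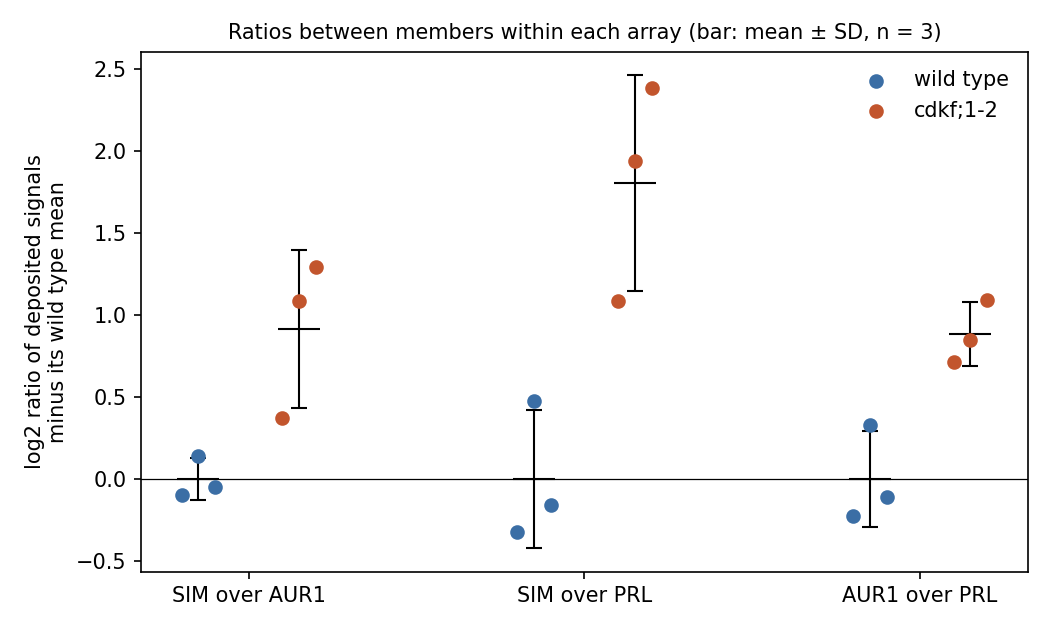
Log2 ratio of the deposited signals of 2 members within each array, minus the wild type mean of that ratio, for the 3 pairs, with points as samples and bars as mean ± SD (n = 3). All mutant points lie above all wild type points in each pair, and the mean shift is largest for SIM over PRL, at 1.81.

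Some array controls differed between the genotypes in the same samples, and their part in the results was not tested. Relative to the array median, the 25S ribosomal RNA control was 48.9 ± 4.43 in wild type and 100.3 ± 12.5 in the mutant (SD, n = 3 each). The bacterial poly(A) control transcripts stood at 2.08 ± 0.072 in wild type and 3.52 ± 0.48 in the mutant, 1.69-fold higher. The ratio of 3' to 5' signals, a measure of RNA integrity and labelling, went from 2.29 ± 0.22 to 2.81 ± 0.15 for actin, from 0.914 ± 0.040 to 1.04 ± 0.038 for GAPDH and from 1.66 ± 0.073 to 1.43 ± 0.081 for ubiquitin. The genotypes were fully separated in all 5 measures, each with an exact permutation p = 0.1, the smallest that 3 against 3 samples can give.

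When arrays were scaled on the poly(A) controls, an alternative added after these values were seen, the median of all probe sets moved to -0.50. The log2 difference of SIM was then 0.58 (limma adjusted p = 0.0882), that of AUR1 -0.29 (limma adjusted p = 0.154) and that of PRL -1.13 (limma adjusted p = 0.00268). Relative to the shifted median they were 1.09, 0.21 and -0.63. Scaling on the hybridisation spikes moved the median the other way, to 0.17. There SIM had 1.52 (limma adjusted p = 0.0454), AUR1 0.61 (limma adjusted p = 0.0959) and PRL -0.22 (limma adjusted p = 0.529), which were 1.34, 0.43 and -0.40 relative to the median. Each of these scalings applies a single factor per array, which moves the 3 genes nearly alike. Their order was therefore bound to stay the same and is no separate result. The sign of AUR1 differed between the scalings.

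**Figure D3:**
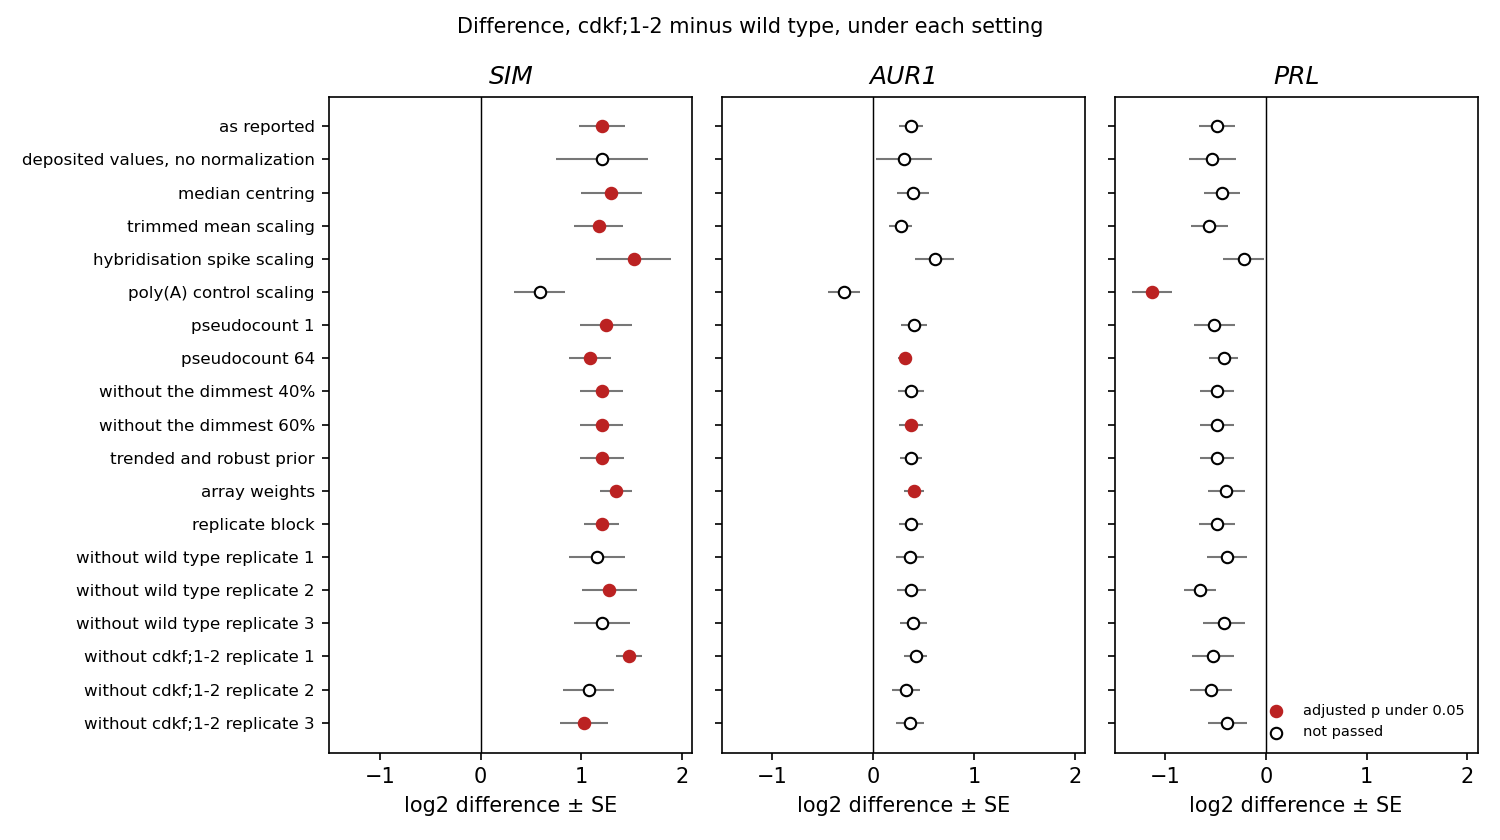
Log2 difference, mutant minus wild type, of SIM, AUR1 and PRL (points, with SE as bars) as reported and under 12 other settings and the omission of each of the 6 samples, filled where the limma adjusted p was under 0.05. SIM lies above 0 and PRL below 0 in each row, and AUR1 lies below 0 with poly(A) control scaling, at -0.29.

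The wider cell cycle was read from lists of genes by role, chosen with earlier results of these data known. Of 146 loci on 10 lists only 21 had a probe set with a single gene name. No CDK, no cyclin and no gene of the DNA damage list was among them. A further 18 genes were added by their array symbols, which makes 39. Of these, 2 rose, 3 fell and 34 did not pass, or 12.8% called against 13.1% of the 13356 named genes (6.57% higher and 6.52% lower). The share was near that of all named genes. The genotypes did not overlap for 10 of the 39, 5 higher and 5 lower, against 31.5% of all named genes (15.1% higher, 16.3% lower). The median log2 difference was -0.05 over the 39 genes and -0.00091 over all named genes, and 13 of the 39 were brighter than the median probe set.

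Among CDK inhibitors, proteins that bind and restrain CDK complexes, 5 of 16 listed genes were measured. SIM rose and 0 fell. With an unadjusted limma p under 0.05 as the mark, 3 were higher and 0 lower, where 27.4% of the 13356 named genes met that mark (13.4% higher, 14.0% lower). Over the 39 cell cycle genes it was met by 6 higher and 4 lower. The other 4 have no symbol in the annotation and were dim. AT1G08180 had normalized signals of 16.9, 42.0 and 41.4 in wild type and 42.2, 65.8 and 84.0 in the mutant (log2 0.71, SE 0.28, limma adjusted p = 0.143). For AT5G40460 the log2 difference was 0.41 (SE 0.16, limma adjusted p = 0.142), for AT1G10690 0.18 (SE 0.22) and for AT5G02420 -0.25 (SE 0.18). The list median was 0.41.

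In the list of Aurora kinases and the spindle checkpoint, 7 of 10 genes were measured and 0 passed in limma. By an unadjusted p under 0.05, AUR1 alone was higher and 0 were lower, against 27.4% of named genes. The farthest from 0 was WYR, whose product belongs to the inner centromere proteins that partner Aurora kinases. Its signals were 20.01, 22.7 and 26.1 in wild type and 0.999, 13.99 and 18.7 in the mutant (log2 -0.58, SE 0.26, limma adjusted p = 0.188). All were in the dim part of the array. Without mutant replicate 1 the log2 difference of WYR was -0.27. It also depended on the added constant, at -1.51 with a pseudocount of 1 and -0.22 with 64. The list median was -0.05.

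In the list of replication licensing and the replication fork, 3 of 27 genes were measured, PRL among them. All 3 had point estimates below 0, where the median over all named genes was -0.00091. AT1G07270, unnamed in the annotation, fell: its signals were 60.2, 60.1 and 70.4 in wild type and 43.4, 39.98 and 42.0 in the mutant. Its log2 difference was -0.46 (SE 0.12, limma adjusted p = 0.0402), close to that of PRL and with a smaller error. The call held without mutant replicate 1 (limma adjusted p = 0.0414) and was lost without any of the other 5 samples (limma adjusted p from 0.0915 to 0.118) and in 6 other settings. ICU2, the catalytic subunit of DNA polymerase alpha, had -0.21 (SE 0.25) and overlapped between genotypes. Among 3 more genes of replication and chromosome structure 0 passed in limma, and 0 did so by an unadjusted p under 0.05, which 27.4% of named genes met. The 3 were POLD3, a DNA polymerase delta subunit (log2 -0.22), POLA3, a primase subunit of the alpha complex (log2 -0.20), and TOPII, a topoisomerase that untangles sister chromatids (log2 -0.13).

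TON1B fell the most of the 39 genes. It belongs to the TONNEAU1 pair, which is needed to form the preprophase band, the microtubule ring that marks the future division plane. Its signals were 116, 151 and 167 in wild type and 62.2, 66.0 and 43.9 in the mutant, well apart. The fall was 2.19-fold (log2 -1.13, SE 0.18, limma adjusted p = 0.00776), and it passed in all 11 other settings in which it was tested and without each of the 6 samples. TON1B has a near-identical neighbouring copy, so the probe set may read both. Of the other genes of its list, the BUB3-type gene BUB3.2 had -0.0030 and KINESIN-12B, a phragmoplast motor, -0.07 on the log2 scale.

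Regulators and endocycle genes did not pass as reported. TCP15, a transcription factor that restrains endoreduplication, had signals of 155, 177 and 131 in wild type and 214, 235 and 199 in the mutant (log2 0.45, SE 0.14, limma adjusted p = 0.0787). It passed without the dimmest 40% of probe sets (limma adjusted p = 0.0447) and without the dimmest 60% (limma adjusted p = 0.0390), and its sign turned with poly(A) control scaling (log2 -0.23). SKP2A, an F-box protein of cell cycle protein turnover, had -0.01 (SE 0.14). Of 3 measured genes of the anaphase-promoting complex and the endocycle 0 passed in limma, and 0 did so by an unadjusted p under 0.05, against 27.4% of named genes. BIN4, part of the plant topoisomerase VI complex required for endoreduplication, had 0.29 (SE 0.18). The anaphase-promoting complex subunits HBT and CDC27a had 0.08 and -0.18. TSO1, which regulates division in floral meristems, had 0.06 (SE 0.19). KEU, a syntaxin-binding protein of cytokinesis, had 0.01 (SE 0.17). For TSO1 and KEU the sign changed with the scaling.

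TRY, an R3-type MYB protein that inhibits trichome formation and the only measured gene of 6 on the trichome list, rose. Its signals were 4.48, 17.2 and 6.11 in wild type and 25.8, 26.6 and 22.2 in the mutant, all in the dim part of the array. The log2 difference was 0.72 (SE 0.19, limma adjusted p = 0.0478), and it depended on the added constant, at 1.53 with a pseudocount of 1 and 0.28 with 64, neither of which passed. The call held without wild type replicate 2 (limma adjusted p = 0.020) and was lost without any of the other 5 samples (limma adjusted p from 0.0794 to 0.14) and in 7 other settings.

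Of 10 genes of repair, recombination and telomeres 1 fell and 0 rose. That is 10% called, near the 13.1% of all named genes (6.57% higher, 6.52% lower). POLH, a DNA polymerase that copies past ultraviolet lesions, had signals of 57.9, 67.7 and 66.1 in wild type and 32.1, 32.1 and 47.3 in the mutant (log2 -0.60, SE 0.15, limma adjusted p = 0.0381). The call held without mutant replicate 3 (limma adjusted p = 0.0311) and was lost without any of the other 5 samples (limma adjusted p from 0.0636 to 0.135) and in 4 other settings. The list median was -0.15.

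**Figure D4:**
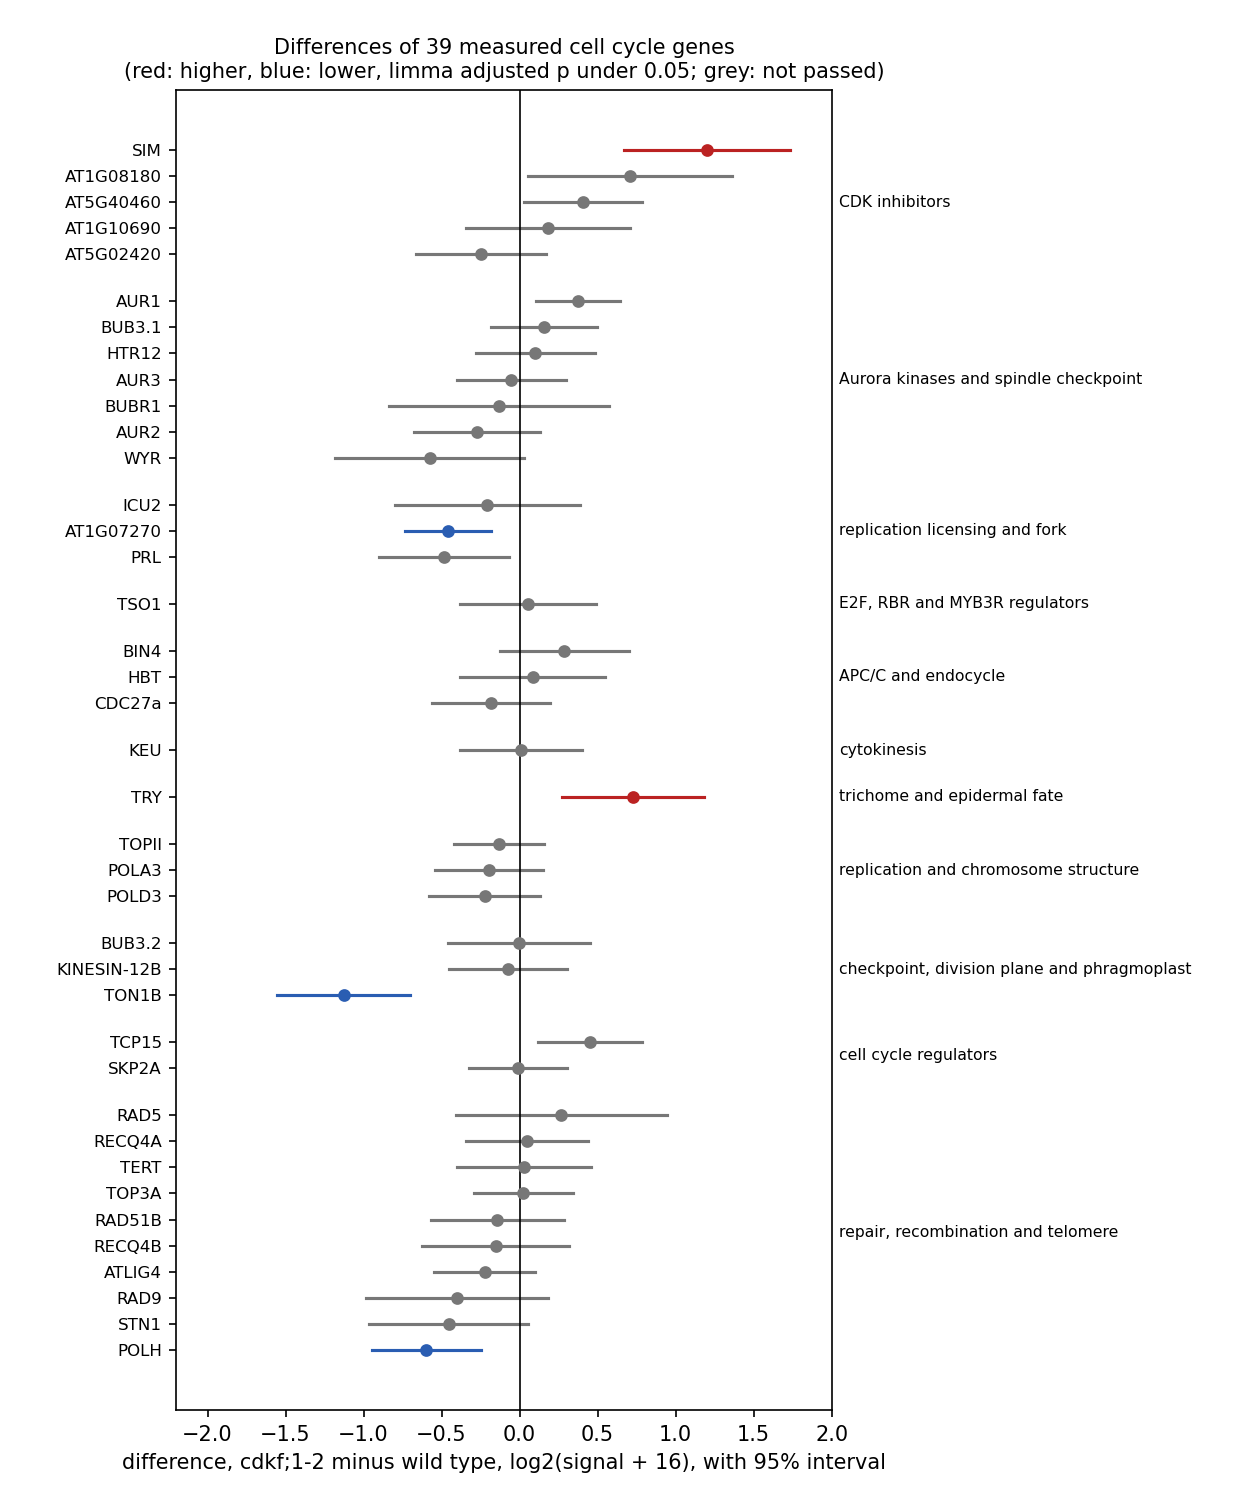
Difference of each of 39 measured cell cycle genes, mutant minus wild type, on the log2(signal + 16) scale with its 95% interval, grouped by list, in red or blue where the limma adjusted p was under 0.05. SIM and TRY lie to the right, TON1B, POLH and AT1G07270 to the left, and the other 34 did not pass.

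The genes with the most similar pattern over the 6 samples were found among 5940 other named genes brighter than the median probe set. The measure was the root mean square difference of log2 signals, each centred on its own mean. It covers both genotypes, so similar log2 differences and a similar order of replicates were bound to follow and are no separate result. Nearest to SIM were AT1G19020 (0.063), AT1G32920 (0.077) and AT4G33550 (0.085), which shared the low mutant replicate 1 and had log2 differences of 1.30, 1.16 and 1.23. AT1G19020 had signals of 50.3, 60.3 and 52.7 in wild type and 109, 177 and 198 in the mutant. Nearest to AUR1 were AT1G29670 (0.032), AT5G14450 (0.039) and AT1G71170 (0.041), with log2 differences of 0.38, 0.44 and 0.31. Nearest to PRL were AT1G50450 (0.065), AT4G14480 (0.080) and AT5G20220 (0.086), with log2 differences of -0.49, -0.39 and -0.50.

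Tissue markers were read beside the members. The 4 measured photosynthesis genes of 5, RCA, LHCB4.1, PRK and PSAN, stood on average above the 99th percentile of probe sets. Their summed normalized signal was 33499 to 33979 in wild type and 26105 to 27279 in the mutant. In the deposited signals RCA, LHCB4.1 and PSAN each overlapped between genotypes. PRK, a Calvin cycle enzyme, and PSAN, a photosystem I subunit, fell (log2 -0.72 and -0.59). RCA and LHCB4.1 did not pass (log2 -0.17 and -0.15), and their normalized signals overlapped between genotypes. The call was lost for PRK under 3 of the 5 other scalings, and for PSAN under 4 of them and without wild type replicate 2, wild type replicate 3 or mutant replicate 3. The root hair expansins EXPA7 and EXPA18, 2 measured of 4 root markers, summed to 210.3 to 224.5 in wild type and 56.2 to 126 in the mutant, and EXPA18 fell (log2 -0.73, limma adjusted p = 0.0280). That call was lost without wild type replicate 1, 2 or 3 or mutant replicate 3, on the deposited signals, with spike scaling and with a pseudocount of 1 (limma adjusted p from 0.0593 to 0.227 in these 3 settings). EXPA7 did not pass as reported (log2 -1.42, limma adjusted p = 0.0620). It passed without mutant replicate 1 (log2 -0.90), without mutant replicate 3 (log2 -1.73) and in 6 of 11 other settings (limma adjusted p from 0.0021 to 0.0400). These were median centring, trimmed mean scaling, poly(A) control scaling, a pseudocount of 64, omission of the dimmest 40% and array weights. The shoot meristem marker CLV3 was dim, at 7.12 to 24.9 in wild type and 2.38 to 13.1 in the mutant. The part of cell composition in the values of SIM, AUR1 and PRL was not tested.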

How the data were processed

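Whole seedlings were profiled on 6 expression arrays. The authors deposited 1 linear intensity per probe set and sample for 22810 probe sets. Per the submitters' processing notes GCOS, the array maker's software, made them. How it scaled the arrays, and its version, were not given in the sources used here. After quantile normalization of the whole table, a pseudocount of 16 preceded the log2 step. Leaving aside 64 control probe sets, limma 3.58.1 under R 4.3.3 fitted genotype alone to 22746 probe sets. Its moderated two-sided tests had 4 residual degrees of freedom, with Benjamini-Hochberg adjustment and no filter. No detection calls were used, and the number of arrays limits the precision.

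Genes were named from the array annotation (13513 probe sets with 1 gene, 503 with several and 8730 not listed), with symbols updated through RefSeq (TAIR10.1) for 13436. The brightest probe set stood for a gene. No coordinates are printed, because no genome build is stated for the array.

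The members and gene lists were chosen with earlier results of these data known. The text names the 3 members, list genes past the threshold, the remaining Aurora and CDK inhibitor genes, the gene farthest from 0 in lists where none passed, and the 3 genes nearest in pattern to each member. Genes named beyond this were chosen after their values were seen. Simulated data with known changes were used to check the model. The alternatives were 5 other scalings, 2 pseudocounts, 2 filters on dim probe sets, a trended and robust prior, array weights, a replicate block and each sample left out. Replicates are separate samples per the labels. If they were not grown apart, p-values measure only the spread between these samples.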

Additional observations from a re-analysis of the deposited data

How the results depend on the processing

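SIM kept its direction in all alternatives, at 0.58 to 1.52 in the 12 other settings and 1.03 to 1.47 with a sample left out. Its call was lost on the deposited signals (1.20) and with poly(A) control scaling (0.58), and 3 of the 6 omissions lost it (limma adjusted p up to 0.0564). AUR1 passed with a pseudocount of 64 (0.31), without the dimmest 60% (0.38) and with array weights (0.41), and reversed with poly(A) control scaling (-0.29). With a sample left out it ran from 0.33 to 0.42 and did not pass. PRL passed with poly(A) control scaling (-1.13) and ran from -0.66 to -0.38 with a sample left out.

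Of the 21 genes listed by locus 3 were called, or 14.3% against 13.1% of all named genes. The count was 0 on the deposited signals, 11 with poly(A) control scaling, 1 with a pseudocount of 1, 1 without the dimmest 40%, where 10 genes were tested, 1 with the trended and robust prior, and 0 to 2 with a sample left out. The count of all probe sets called, 3267 of 22746, became 328 on the deposited signals and 11223 with poly(A) control scaling. The 11 listed genes called with that scaling thus stand beside 11223 of 22746 probe sets. The count of all probe sets called was 2122 with a pseudocount of 1 and 5612 with array weights. With a sample left out it ran from 1496 (without wild type replicate 2) to 4107 (without mutant replicate 1). The share of calls that were higher, 48.3%, was 80.4% with hybridisation spike scaling, 4.37% with poly(A) control scaling and 58.5% with median centring.

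Reversals of genes that had not passed were as follows. The median of all probe sets lay at -0.50 with poly(A) control scaling and at 0.17 with spike scaling, a shift of probe sets in general. Beyond that shift the cause of the reversals was not tested. With poly(A) control scaling, AT5G40460 went to -0.035, AT1G10690 to -0.020, TSO1 to -0.62, BIN4 to -0.21, KEU to -0.62, TCP15 to -0.23, AT1G29670 to -0.10 and AT1G71170 to -0.34. AT5G14450, which had passed, went to -0.23 there. With spike scaling, AUR3 went to 0.14, RCA to 0.14 and LHCB4.1 to 0.17. With array weights, AUR3 went to 0.079, TSO1 to -0.022 and KEU to -0.13. On the deposited signals TSO1 had -0.033 and KEU -0.013, and with the trimmed mean -0.060 and -0.042. With a sample left out, AT1G10690 ran from -0.079 to 0.32, AUR3 from -0.15 to 0.040, TSO1 from -0.13 to 0.17 and KEU from -0.13 to 0.099.

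With the replicate block SIM had 1.20 (limma adjusted p = 0.0142), AUR1 0.38 and PRL -0.48, 3382 probe sets were called, and 3 listed genes passed: SIM, AT1G08180 and TRY. Samples with the same number correlated in their deviations from the group means at 0.298, 0.0086 and 0.150, so the numbers were not taken as pairing, and not every sample correlated best with its own number.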
